A study of Mus musculus with 8 samples.

Results

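Genes that take up, carry, store, export, make and burn cholesterol and fatty acids were compared between MHCII-high and MHCII-low macrophages of mouse pancreas tumours. The set held 48 genes, matched by the gene name that the array files give, and each was read from its brightest probe over all 8 arrays. Of these 48 genes, 47 passed the filter on dim probes (signal well above background in 4 or more arrays), and all 47 were above background on all 8. They stood among 28006 genes tested, from 56605 probes. Elovl6, a fatty acid elongase, had 1 probe, which was above background on 2 of 4 MHCII-high and 0 of 4 MHCII-low arrays, and it was not tested.

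Both groups were macrophages sorted by flow cytometry from implanted pancreas tumours of female FvBn mice, 8 to 10 weeks old, and they differ in surface MHC class II, with which antigen-presenting cells show peptides to helper T cells. Each group held 4 samples with the label numbers 20435, 20436, 20439 and 20442, and values are given in this order. The labels give no genotype, although the series' design text names wild-type, KPC and FLT3-CRE/LSL-YFP mice and normal pancreas as well as tumours. Cells were collected straight into lysis solution, and RNA was amplified and labelled with Cy5, with 1 array per sample. Whether a group's 4 samples came from different animals is not stated in the labels. The p-values therefore describe the spread of these samples, and that spread may be technical only. The tumour cells implanted and the gates other than MHCII are not given in the sources used here.

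Macrophages take in lipoproteins and dying cells and so receive more cholesterol than they need. Free cholesterol is esterified and kept in droplets, handed to apolipoproteins by ABC transporters, or turned into oxysterols, which activate the liver X receptors that drive export genes. When sterols in the endoplasmic reticulum run low, the transcription factor encoded by Srebf2 is released by proteolysis and switches on the genes of cholesterol synthesis. Fatty acids are built from cytosolic acetyl-CoA by Acly, Acaca and Fasn, and are oxidised in mitochondria after entry through the carnitine palmitoyltransferases.

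The macrophage label was checked against 10 macrophage markers, all above background on all 8 arrays, and their summed signal was 211 to 289 in MHCII-high and 290 to 386 in MHCII-low arrays. Of these markers, 9 had a negative difference, and 2 passed as lower in MHCII-high arrays, Adgre1 (3.26-fold) and Siglec1 (3.29-fold). Sums are of linear signal, each probe divided by the 75th percentile of its array. Sums of 10 dendritic cell markers were 38.2 to 57.9 and 16.2 to 22.8, and 8 of the 10 passed the test as higher in MHCII-high arrays. These 8 were from 3.32-fold (Zbtb46) to 21.9-fold (Flt3) higher. Sums of 10 tissue-resident macrophage markers were 20 to 45.1 and 98.9 to 142, with 7 of 10 lower, and those of 8 serous-cavity macrophage markers other than Fabp4 were 17.9 to 35.1 and 69.5 to 93.3. These 4 sums separated the same 2 groups of arrays as the lipid genes past the threshold did, and their part in the lipid results was not tested. The tissue-resident and serous-cavity lists share Timd4 and Cd5l. Sums of 8 fibroblast markers overlapped, at 10.6 to 74.6 in MHCII-high and 33.7 to 89.2 in MHCII-low arrays (8 negative, median -0.90). Epithelial sums (4.71 to 24.2 and 7.48 to 16.1), acinar sums (6.86 to 34.9 and 17.9 to 29.5) and B cell sums (13.2 to 17.5 and 10.4 to 14.6) also overlapped. Fewer cells of a type and less RNA per cell cannot be told apart in these bulk samples.

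Of the 47 genes, 30 had a lower mean in MHCII-high cells, among them all 7 genes of fatty acid oxidation, while 8 of 11 cholesterol synthesis genes and regulators had a higher one. In limma's test on log2 signal, adjusted by the Benjamini-Hochberg method over all 28006 genes with a threshold of 0.05, 13 of the 47 genes (27.7%) passed, against 4.93% of all genes tested. In a fit kept to probes above background on all 8 arrays, the same 13 passed, against 6.75% of all genes in that fit. Apoc1, Fabp4, Ch25h, Acly, Acadl, Abca1 and Lrp1 were lower in MHCII-high cells, 7 of 47 (14.9%) against 2.3% of all genes. Cyp27a1, Srebf2, Dgat1, Fasn, Idi1 and Fdps were higher, 6 of 47 (12.8%) against 2.63% of all genes. All 4 MHCII-high arrays lay below all 4 MHCII-low arrays for 15 of the genes, as for 7.15% of all genes, and above them for 8, as for 7.26%. The lipid genes were chosen with earlier results of these data known, so these shares are no test of the set. The median difference, MHCII-high minus MHCII-low, was -0.17 on the log2 scale over the 47 genes and -0.01 over all genes.

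**Figure D1:**
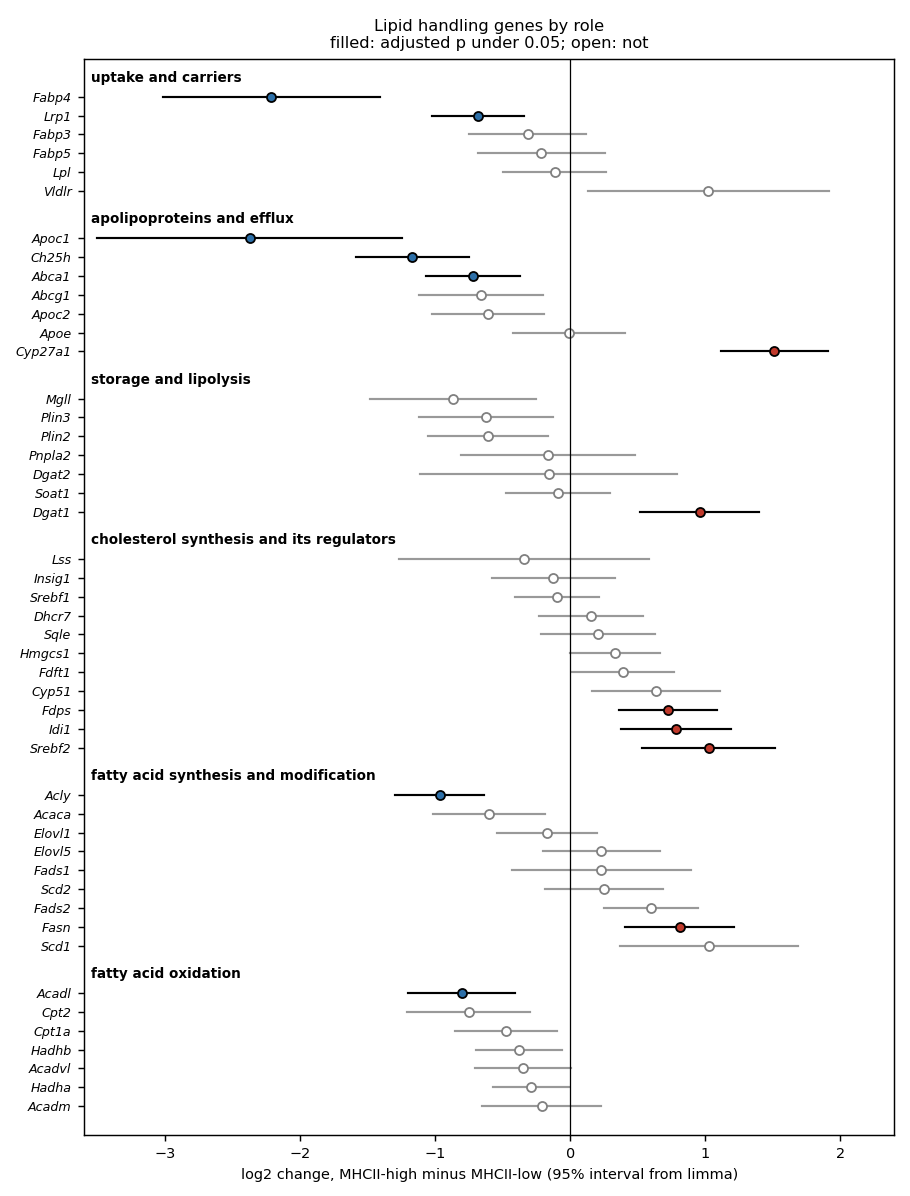
Difference in log2 signal, MHCII-high minus MHCII-low, for each of the 47 tested genes, grouped by role, with limma's 95% interval (n = 4 arrays per group). Filled points passed an adjusted p of 0.05. The 7 fatty acid oxidation genes all lie to the left of 0, and 8 of the 11 cholesterol synthesis genes and regulators lie to the right.

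Promoter sequences of 4 genes are shown because Srebf2, Idi1 and Fasn passed as higher in MHCII-high cells and Hmgcs1, of the same pathway, did not, and because the binding letters of the sterol-regulated factors can be read in them. Each is the 250 bases searched, which lie before the gene's start on its own strand, from RefSeq, build GRCm38.p6. Capitals mark matches on either strand to CCAAT, the NF-Y box, or to TCACNCCA, the core letters of a sterol regulatory element. Srebf2 lies at chr15:82147019-82147268 (+), Idi1 at chr13:8885356-8885605 (+), Hmgcs1 at chr13:119690101-119690350 (+) and Fasn at chr11:120824548-120824797 (-).
Srebf2: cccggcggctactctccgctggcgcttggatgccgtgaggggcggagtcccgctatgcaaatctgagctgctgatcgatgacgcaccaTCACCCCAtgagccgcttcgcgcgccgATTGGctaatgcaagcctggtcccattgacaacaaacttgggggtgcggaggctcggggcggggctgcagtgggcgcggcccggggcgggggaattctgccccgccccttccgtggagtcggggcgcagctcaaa
Idi1: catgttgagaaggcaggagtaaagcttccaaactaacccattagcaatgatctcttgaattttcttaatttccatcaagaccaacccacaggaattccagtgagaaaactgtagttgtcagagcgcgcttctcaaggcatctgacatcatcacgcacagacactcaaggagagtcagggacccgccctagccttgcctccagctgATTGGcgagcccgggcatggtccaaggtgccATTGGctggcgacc
Hmgcs1: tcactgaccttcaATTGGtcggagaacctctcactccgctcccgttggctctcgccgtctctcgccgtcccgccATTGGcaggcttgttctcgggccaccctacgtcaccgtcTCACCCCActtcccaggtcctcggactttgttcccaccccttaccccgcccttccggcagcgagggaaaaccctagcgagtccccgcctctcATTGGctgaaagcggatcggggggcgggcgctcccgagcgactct
Fasn: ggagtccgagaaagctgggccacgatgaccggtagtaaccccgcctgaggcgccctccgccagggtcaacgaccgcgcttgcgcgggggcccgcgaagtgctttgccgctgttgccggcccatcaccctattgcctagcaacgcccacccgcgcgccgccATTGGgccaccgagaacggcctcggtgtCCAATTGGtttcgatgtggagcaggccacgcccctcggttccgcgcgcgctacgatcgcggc

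The Srebf2 and Hmgcs1 windows each held 1 match to the sterol element letters, at -162 and -137 from the start. The NF-Y letters occurred 1 time in Srebf2, 2 times in Idi1, and 3 times in Hmgcs1 and in Fasn, where a match on each strand overlapped in the run CCAATTGG. Of the 48 genes, 35 had a promoter in the table. The NF-Y letters were in a window of all 8 cholesterol synthesis genes and regulators that had one (Cyp51, Dhcr7, Hmgcs1, Idi1, Insig1, Lss, Srebf1 and Srebf2), against 37.5% of 27025 genes with a promoter, and the sterol element letters were in 2 of the 8, against 4.2%. Only 2 of these 8, Idi1 and Srebf2, passed the test, so the letters were also present in genes that did not. The repeats of AGGTCA that liver X receptors and PPARs bind (with 4 letters and with 1 letter between the copies) were in 0 of the 35, and in 0.0148% and 0.0407% of all genes. Only exact repeats were searched, and at those shares 0 of 35 cannot show that these promoters lack such sites. The letters of the sterol element were shortened after these promoters had been seen, and a match is not a measured binding site.

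Among the 6 genes of uptake and intracellular carriage, Fabp4 and Lrp1 were lower in MHCII-high cells, as were 2.3% of all genes. The other 4 did not pass the test (median of the 6 -0.27, 5 negative). Fabp4 encodes a fatty acid binding protein of adipocytes and macrophages that carries fatty acids in the cytosol. Its log2 signal relative to the array's 75th percentile, the scale of every level below, was 2.25, 2.68, 2.33 and 2.64 in MHCII-low arrays and 0.74, 1.04, -0.16 and -0.58 in MHCII-high arrays. The 4 MHCII-low arrays were close together, and the MHCII-high arrays were all lower and spread more widely, with 20439 and 20442 lowest. Fabp4 was 4.64-fold lower in MHCII-high cells (95% interval 2.66 to 8.08, adjusted p = 0.0125), and its second, dimmer probe differed by -2.76 on the log2 scale. Sums of 8 adipocyte markers were 5.38 to 8.13 in MHCII-high and 3.74 to 3.99 in MHCII-low arrays, and without Lipe, left out after its values were seen, they overlapped, at 1.22 to 2.13 and 1.21 to 2.06. Of the 7 adipocyte markers tested, 4 had negative differences and the others positive ones (median -0.36). The only one past the threshold, Lipe, was higher in MHCII-high cells. Adipoq differed by -1.25 (adjusted p = 0.504) with overlapping groups, and was above background on only 2 of 4 MHCII-high and 3 of 4 MHCII-low arrays. The part of adipocyte RNA in the Fabp4 result was not tested.

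Lrp1, a large endocytic receptor that clears apolipoprotein E-rich remnants and many other ligands, read 5.50, 5.29, 5.40 and 5.37 in MHCII-low arrays and 5.01, 4.60, 4.53 and 4.69 in MHCII-high arrays. The groups did not overlap, and MHCII-high 20435 was nearest to the MHCII-low arrays. This probe was 1.61-fold lower (95% interval 1.27 to 2.04, adjusted p = 0.0406), but 2 dimmer Lrp1 probes differed by 0.25 and 0.84 in the opposite direction, and the mean of the 3 probes differed by 0.14 (adjusted p = 0.700). The direction for Lrp1 therefore rested on the choice of probe. Its call also ended with quantile normalization (adjusted p = 0.0512) and with the deposited series table (adjusted p = 0.0513). Vldlr, the very low density lipoprotein receptor, differed by 1.02 on its brightest probe (adjusted p = 0.192) and by -0.72 on the other. MHCII-low 20436 was lowest for Vldlr at -3.59 and MHCII-low 20439 highest of that group at -1.73, so the groups overlapped. Fabp3, Fabp5 and lipoprotein lipase, Lpl, differed by -0.32, -0.22 and -0.12 (adjusted p of 0.409 to 0.752), all with overlapping groups.

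The apolipoprotein and efflux genes had the most negative median of the 6 roles, -0.66. In limma's test 3 of 7 were lower and 1 higher, against 2.3% and 2.63% of all genes. Apoc1 encodes a small apolipoprotein of the Apoe gene cluster that is carried on lipoproteins. Its log2 signal was 2.48, 3.04, 3.15 and 4.23 in MHCII-low arrays and 1.72, 1.4986, 0.14 and 0.05 in MHCII-high arrays. MHCII-low 20442 was the highest array and MHCII-high 20442 the lowest, and the groups did not overlap. Apoc1 was 5.18-fold lower in MHCII-high cells (95% interval 2.37 to 11.3, adjusted p = 0.0334). Apoe, the neighbouring gene and the main apolipoprotein that macrophages secrete, showed a difference of -0.01 (95% interval -0.43 to 0.40), with means of 6.01 ± 0.23 in MHCII-high and 6.03 ± 0.24 in MHCII-low arrays (SD, n = 4). Apoc2, an activator of lipoprotein lipase, differed by -0.61 and did not pass (adjusted p = 0.1003), although all MHCII-high arrays lay below all MHCII-low arrays. Its call appeared without MHCII-high 20435 (-0.75, adjusted p = 0.0398).

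Both ABC transporters had lower signals in MHCII-high arrays. Abca1, which loads cholesterol onto lipid-poor apolipoprotein A-I, read 3.02, 2.71, 3.11 and 3.06 in MHCII-low arrays and 2.37, 2.4016, 2.0955 and 2.17 in MHCII-high arrays. The groups were apart, with MHCII-low 20436 lowest of its group. The difference was 1.65-fold (95% interval 1.29 to 2.09, adjusted p = 0.0346), and the second Abca1 probe differed by -0.54. Abcg1, which exports cholesterol to mature HDL, differed by -0.66 and did not pass (adjusted p = 0.110), with no overlap between groups.

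The 2 sterol hydroxylases moved in opposite directions. Ch25h, which makes 25-hydroxycholesterol, read 2.42, 2.60, 2.23 and 2.49 in MHCII-low arrays and 1.46, 1.55, 1.18 and 0.88 in MHCII-high arrays. Each group was compact relative to the gap between them. Ch25h was 2.25-fold lower (95% interval 1.68 to 3.01, adjusted p = 0.0122). Cyp27a1, the mitochondrial enzyme that makes 27-hydroxycholesterol, read -3.78, -3.77, -3.52 and -3.32 in MHCII-low arrays and -2.23, -2.27, -1.79 and -2.05 in MHCII-high arrays. All of these were well above background, and the highest MHCII-low array was more than 1 log2 unit below the lowest MHCII-high array. Cyp27a1 was 2.85-fold higher (95% interval 2.17 to 3.75, adjusted p = 0.00414), the smallest p of the 47 genes and rank 110 of all genes, and its log2 difference was 0.77 with normexp background correction (adjusted p = 0.0116) in place of 1.51.

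Of 22 other uptake, efflux and sterol-sensing genes, 2 passed the test, against 4.93% of all genes tested, and both were lower in MHCII-high cells. They were Rxra, the retinoid X receptor that pairs with the liver X receptors and PPARs (-0.81, adjusted p = 0.0335), and the fatty acid transporter Slc27a1 (-0.85, adjusted p = 0.0279). The median of the 22 was -0.30, with 15 negative.

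**Figure D2:**
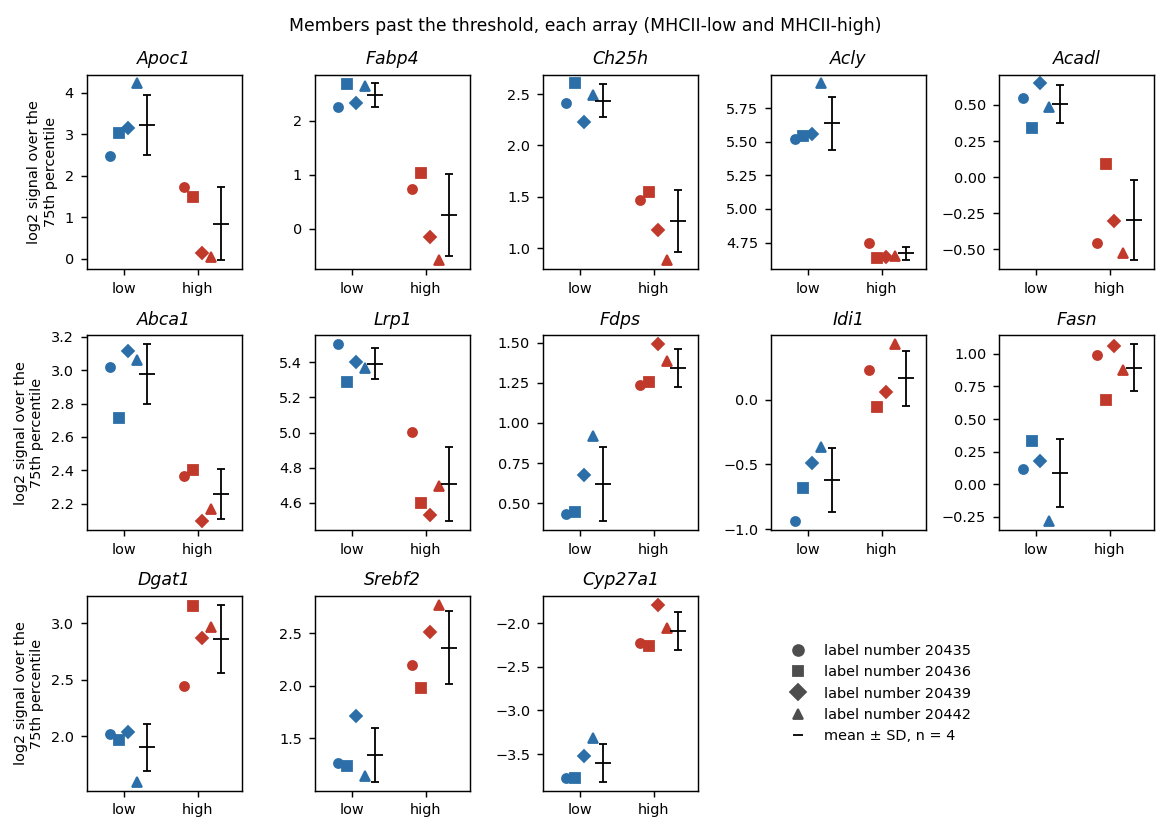
Log2 signal relative to the array's 75th percentile in each of the 8 arrays for the 13 genes past the threshold, with MHCII-low arrays in blue and MHCII-high arrays in red. Marker shapes give the label number, and the black lines give the mean ± SD of the 4 arrays. In each panel all arrays of one group lie on one side of the other group.

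In storage and lipolysis 1 of 7 genes was higher in MHCII-high cells and 0 were lower in limma's test, with 3 lower at an unadjusted p under 0.05 (median -0.17, 6 negative). Of all genes tested, 9.38% were lower and 10.3% higher at that unadjusted p, and 2.3% were lower and 2.63% higher in limma's test. Dgat1, which joins the last fatty acid to diacylglycerol in making triglyceride, read 2.02, 1.96, 2.03 and 1.59 in MHCII-low arrays and 2.44, 3.16, 2.87 and 2.97 in MHCII-high arrays. MHCII-low 20442 stood below the other MHCII-low arrays and MHCII-high 20435 below the other MHCII-high arrays, and the groups did not overlap. Dgat1 was 1.94-fold higher (95% interval 1.43 to 2.64, adjusted p = 0.0296). Dgat2, the other enzyme of this step, differed by -0.16 (95% interval -1.12 to 0.79), and MHCII-high 20442 was lowest at -2.49.

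Lipid droplet and lipase genes mostly had negative differences that did not pass. The droplet coat genes Plin2 and Plin3 differed by -0.61 and -0.62 (adjusted p of 0.123 and 0.152). Mgll, the lipase that releases the last fatty acid from glycerol, differed by -0.87 (adjusted p = 0.113), with all MHCII-high arrays below all MHCII-low arrays. Pnpla2, adipose triglyceride lipase, differed by -0.17, and Soat1, which esterifies cholesterol for storage, by -0.09 (95% interval -0.47 to 0.29). Among 20 other storage and lipolysis genes, hormone-sensitive lipase, Lipe, was higher in MHCII-high cells (1.06, adjusted p = 0.0193), and Gpat3, an acyltransferase of the first step of glycerolipid synthesis, was lower (-0.90, adjusted p = 0.0304). Of all genes tested, 4.93% passed in either direction. Lipe also stands in the adipocyte marker list.

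Cholesterol synthesis and its regulators had the highest median of the 6 roles, 0.33. In limma's test 3 of 11 genes were higher in MHCII-high cells and 0 lower, against 2.63% and 2.3% of all genes. None of the 11 was lower at an unadjusted p under 0.05 either, against 9.38% of all genes. Srebf2, the transcription factor gene of the pathway, read 1.27, 1.24, 1.72 and 1.14 in MHCII-low arrays and 2.20, 1.98, 2.52 and 2.77 in MHCII-high arrays. MHCII-low 20439 was the highest of its group and still lay below MHCII-high 20436. Srebf2 was 2.04-fold higher (95% interval 1.45 to 2.86, adjusted p = 0.0339), and its second probe differed by 0.62. Its relative Srebf1, which governs mainly fatty acid genes, differed by -0.10 (95% interval -0.41 to 0.21).

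Idi1 and Fdps act in sequence, the first isomerising isopentenyl diphosphate and the second building farnesyl diphosphate from it. Idi1 read -0.94, -0.68, -0.49 and -0.37 in MHCII-low arrays and 0.23, -0.06, 0.05 and 0.43 in MHCII-high arrays. Fdps read 0.43, 0.44, 0.68 and 0.92 in MHCII-low arrays and 1.24, 1.26, 1.49 and 1.39 in MHCII-high arrays. In both genes MHCII-low 20442 came nearest to the MHCII-high arrays without reaching them. Idi1 was 1.72-fold higher (95% interval 1.30 to 2.29, adjusted p = 0.0461) and Fdps 1.65-fold higher (95% interval 1.29 to 2.13, adjusted p = 0.0400).

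The remaining enzymes had smaller differences that did not pass. Cyp51, the lanosterol demethylase, differed by 0.63 (adjusted p = 0.130), with MHCII-low 20436 at 3.84 inside the MHCII-high range of 3.81 to 4.09 and the other MHCII-low arrays at 3.03 to 3.35. Its call appeared without MHCII-low 20436 (0.81, adjusted p = 0.0472) and with the mean of both probes (0.90, adjusted p = 0.00959). Fdft1 (squalene synthase), Hmgcs1 (HMG-CoA synthase), Sqle (squalene epoxidase) and Dhcr7 (the last reductase of the pathway) differed by 0.39, 0.33, 0.21 and 0.16 (adjusted p of 0.235 to 0.659). For Hmgcs1 all MHCII-high arrays lay above all MHCII-low arrays. Lss, lanosterol synthase, differed by -0.34, and MHCII-low 20436 read 1.33 where the other MHCII-low arrays read -0.73 to 0.01. Insig1, which holds the sterol sensor in the endoplasmic reticulum, differed by -0.12. Among 16 other cholesterol synthesis genes, Pmvk, phosphomevalonate kinase, was higher in MHCII-high cells (0.70, adjusted p = 0.0252). In limma's test 0 of the 16 were lower, against 2.3% of all genes. At an unadjusted p under 0.05, 2 were lower, against 9.38% of all genes (median 0.13, 4 negative).

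Fatty acid synthesis and modification showed opposite calls within the same route. Acly, which cleaves citrate to cytosolic acetyl-CoA, read 5.52, 5.54, 5.56 and 5.93 in MHCII-low arrays and 4.75, 4.64, 4.65 and 4.65 in MHCII-high arrays. MHCII-high arrays differed from each other by little, and MHCII-low 20442 stood above its group. Acly was 1.95-fold lower in MHCII-high cells (95% interval 1.56 to 2.46, adjusted p = 0.00974), and its second probe differed by -0.84. Fasn, the synthase that builds palmitate, read 0.12, 0.33, 0.18 and -0.28 in MHCII-low arrays and 0.99, 0.65, 1.06 and 0.88 in MHCII-high arrays. The groups did not overlap, and MHCII-low 20442 was lowest. Fasn was 1.75-fold higher (95% interval 1.33 to 2.32, adjusted p = 0.0393).

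Acaca, the carboxylase between those steps, differed by -0.60 (adjusted p = 0.104) with all MHCII-high arrays below all MHCII-low arrays, and of its 4 other probes above background 3 differed by -0.59 to -1.09 and 1 by 0.48. The desaturases Scd1 and Fads2 differed by 1.03 (adjusted p = 0.0861) and 0.60 (adjusted p = 0.0655). Both passed with normexp background correction, at 0.99 (adjusted p = 0.0365) and 0.62 (adjusted p = 0.0255). The brightest Scd1 probe, which gave these Scd1 values, maps to the + strand of chr19:44471140-44471199 in mm9, by the coordinates in the files. The other Scd1 probe, matched to RefSeq, lies on the opposite (-) strand and differed by 1.28. Whether the brightest probe reads Scd1 mRNA was not tested. Scd2, Fads1, Elovl5 and Elovl1 differed by 0.25, 0.23, 0.23 and -0.17 (adjusted p of 0.519 to 0.713). Elovl6, untested, read -4.61, -7.08, -3.72 and -1.95 in MHCII-high arrays and -6.99, -6.89, -6.95 and -6.81 in MHCII-low arrays, where it was not well above background. MHCII-high 20436 lay below all MHCII-low arrays, so no fold is given. Of 14 other fatty acid synthesis genes 1 passed, against 4.93% of all genes tested, and their median was -0.14. It was Hacd1, a dehydratase of fatty acid elongation, lower in MHCII-high cells (-1.004, adjusted p = 0.0222).

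Fatty acid oxidation was the role in which all 7 genes had negative differences, from -0.21 to -0.80, with a median of -0.38. The only one past the threshold was Acadl, the long-chain acyl-CoA dehydrogenase, while 5 of 7 were lower at an unadjusted p under 0.05. The shares of all genes lower by these 2 measures were 2.3% and 9.38%. Acadl read 0.55, 0.34, 0.65 and 0.48 in MHCII-low arrays and -0.46, 0.09, -0.30 and -0.53 in MHCII-high arrays. MHCII-high 20436 lay nearest to the MHCII-low arrays without overlap. Acadl was 1.75-fold lower in MHCII-high cells (95% interval 1.33 to 2.30, adjusted p = 0.0378).

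The carnitine palmitoyltransferases Cpt1a, on the outer mitochondrial membrane, and Cpt2, on the inner, differed by -0.48 (adjusted p = 0.152) and -0.75 (adjusted p = 0.0719). Cpt2 did not overlap between groups, and its call appeared without MHCII-low 20436 (-0.90, adjusted p = 0.0435). The very long-chain dehydrogenase Acadvl and both subunits of the trifunctional protein, Hadha and Hadhb, differed by -0.35, -0.29 and -0.38 with no overlap (adjusted p of 0.178 to 0.265), and the medium-chain dehydrogenase Acadm by -0.21 with overlap. Of 21 other fatty acid oxidation genes 0 passed limma's test, against 4.93% of all genes, and the median was -0.27 with 15 negative. At an unadjusted p under 0.05, 5 were lower and 2 higher, against 9.38% and 10.3% of all genes.

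**Figure D3:**
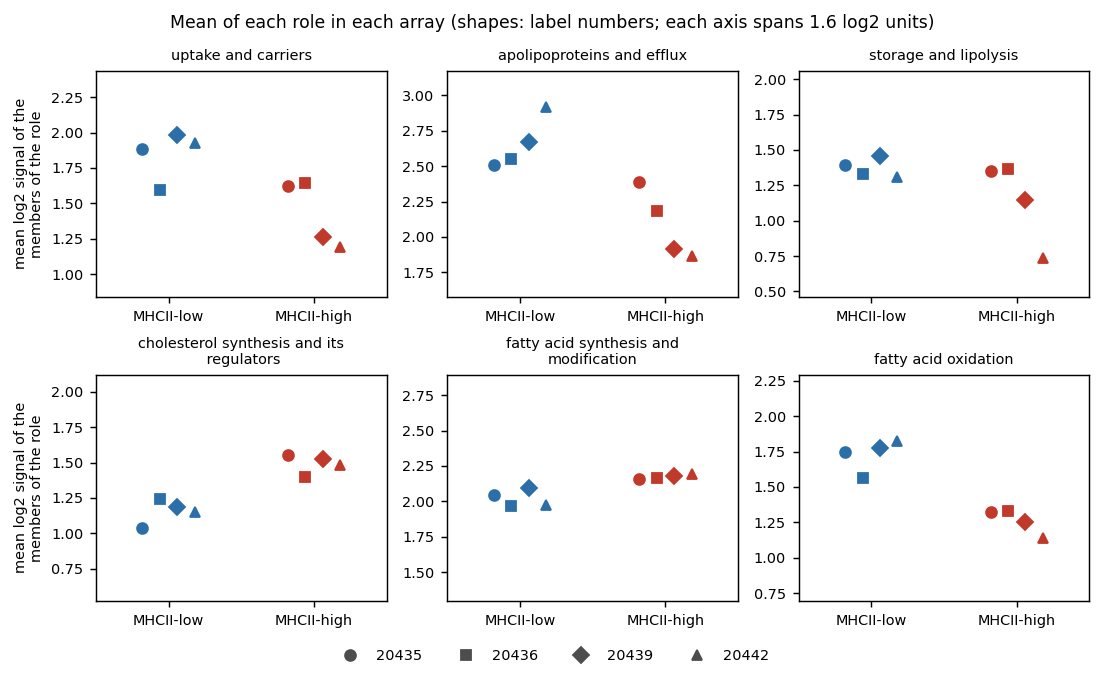
Mean log2 signal of the genes of each role in each array, with MHCII-low arrays in blue, MHCII-high arrays in red and shapes for the label numbers. Each panel spans the same number of log2 units. The fatty acid oxidation means were 1.14 to 1.33 in MHCII-high and 1.56 to 1.83 in MHCII-low arrays, and the cholesterol synthesis means were 1.40 to 1.55 and 1.04 to 1.24.

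Averaged over the genes of a role, the arrays separated by group for 4 of 6 roles. The mean log2 signal of the apolipoprotein and efflux genes was 1.86 to 2.39 in MHCII-high and 2.51 to 2.92 in MHCII-low arrays, and that of fatty acid oxidation was 1.14 to 1.33 and 1.56 to 1.83. Cholesterol synthesis was the reverse, with 1.40 to 1.55 in MHCII-high and 1.04 to 1.24 in MHCII-low arrays. The fatty acid synthesis means were 2.16 to 2.19 and 1.96 to 2.09, a small gap in which Acly and Fasn have opposite signs. Uptake means overlapped, since MHCII-low 20436 at 1.597 lay below MHCII-high 20435 and 20436 at 1.62 and 1.64. Storage means overlapped too, at 0.73 to 1.37 and 1.31 to 1.46. These means carry no test because the genes were chosen with results of these data known.

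**Figure D4:**
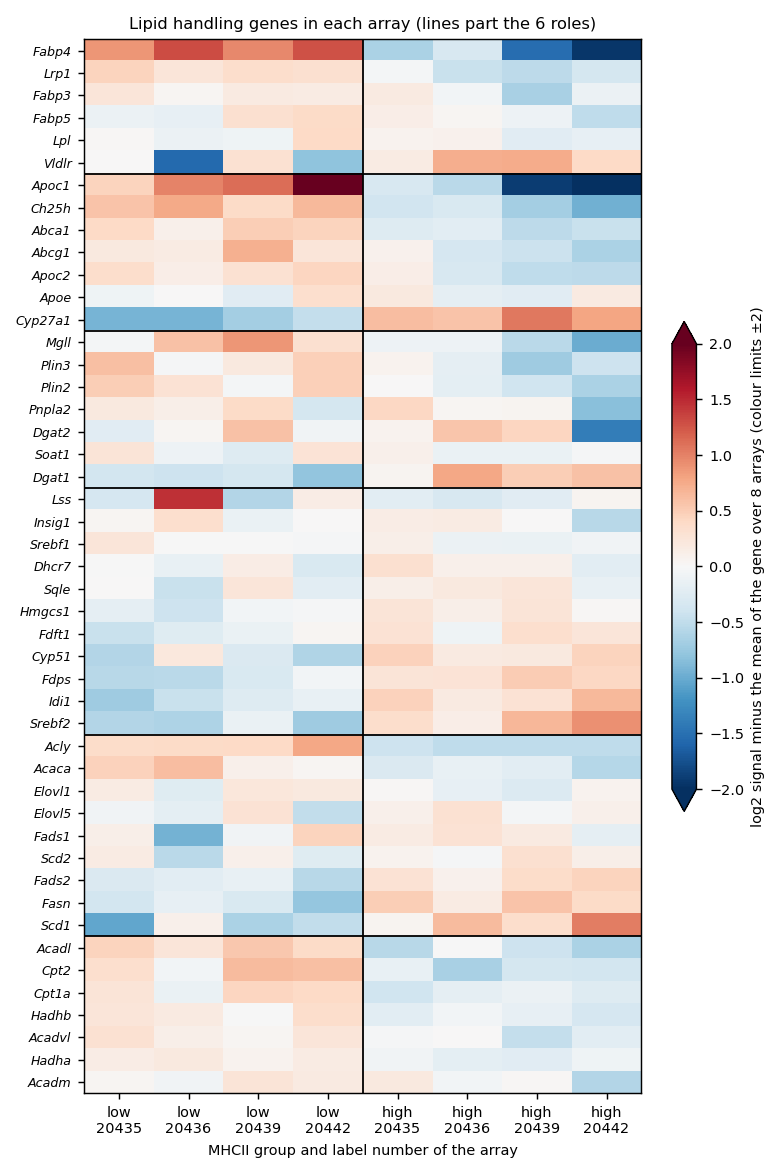
Log2 signal of each of the 47 genes in each array minus the gene's mean over the 8 arrays, with horizontal lines between roles and a vertical line between groups; colours are limited to 2 log2 units on either side of 0. Fabp4 and Apoc1 show the widest range, and MHCII-low 20436 departs from its group in Lss, Vldlr and Fads1.

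The strength of the 13 calls differed. Acly, Ch25h, Cyp27a1 and Fabp4 passed in all 8 fits that each left out 1 array, with largest adjusted p of 0.0408, 0.0458, 0.0183 and 0.0439. Idi1 passed in none of the 8 (largest adjusted p = 0.113, without MHCII-low 20435). Of the others, Abca1 and Fasn kept the call only without MHCII-low 20436, Acadl only without MHCII-high 20436, Dgat1 and Lrp1 only without MHCII-high 20435, and Fdps only without MHCII-low 20442. Srebf2 kept it without MHCII-high 20436 or MHCII-low 20439, and Apoc1 without MHCII-high 20435, MHCII-high 20436 or MHCII-low 20435. For these 8 genes the largest adjusted p, each without MHCII-high 20439, was 0.109 for Abca1, 0.117 for Fasn, 0.104 for Acadl, 0.0848 for Dgat1, 0.122 for Lrp1, 0.119 for Fdps, 0.102 for Srebf2 and 0.0927 for Apoc1. The direction of all 13 was the same in each of these fits, as it must be for groups that do not overlap. With no filter on dim probes, which enters more genes in the adjustment, Apoc1, Fasn and Idi1 lost the call (adjusted p of 0.0524, 0.0511 and 0.0593) at the same log2 differences.

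All 8 arrays lay on 1 slide, in 2 rows, and the rows were unequal between groups, with 1 MHCII-high and 3 MHCII-low arrays in row 1 and 3 and 1 in row 2. All 13 genes had the same direction within row 1 and within row 2, which was certain because their groups did not overlap. With the row as a block, Acly, Cyp27a1 and Dgat1 passed (adjusted p of 0.0271, 0.0207 and 0.0319), and the other 10 did not (0.0616 for Ch25h to 0.160 for Idi1). With the label number as a fixed block instead, 4 of the 13 passed, and Dgat1 did not (adjusted p = 0.0868). Only 2 of the 13, Acly and Cyp27a1, passed with each block and in all 8 fits that left out 1 array. Apoc1 differed by -1.39 within row 1 and -3.59 within row 2, Fabp4 by -1.38 and -2.64, Acadl by -0.42 and -0.91, Srebf2 by 0.57 and 1.35, Fasn by 0.44 and 1.26, and Fdps by 0.74 and 0.45. The differences of Acly were -0.90 and -1.25, of Ch25h -0.87 and -1.32, of Abca1 -0.55 and -0.85, and of Lrp1 -0.80 and -0.62. Cyp27a1 differed by 1.42 and 1.29, Dgat1 by 1.15 and 1.17 and Idi1 by 0.65 and 0.61.

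**Figure D5:**
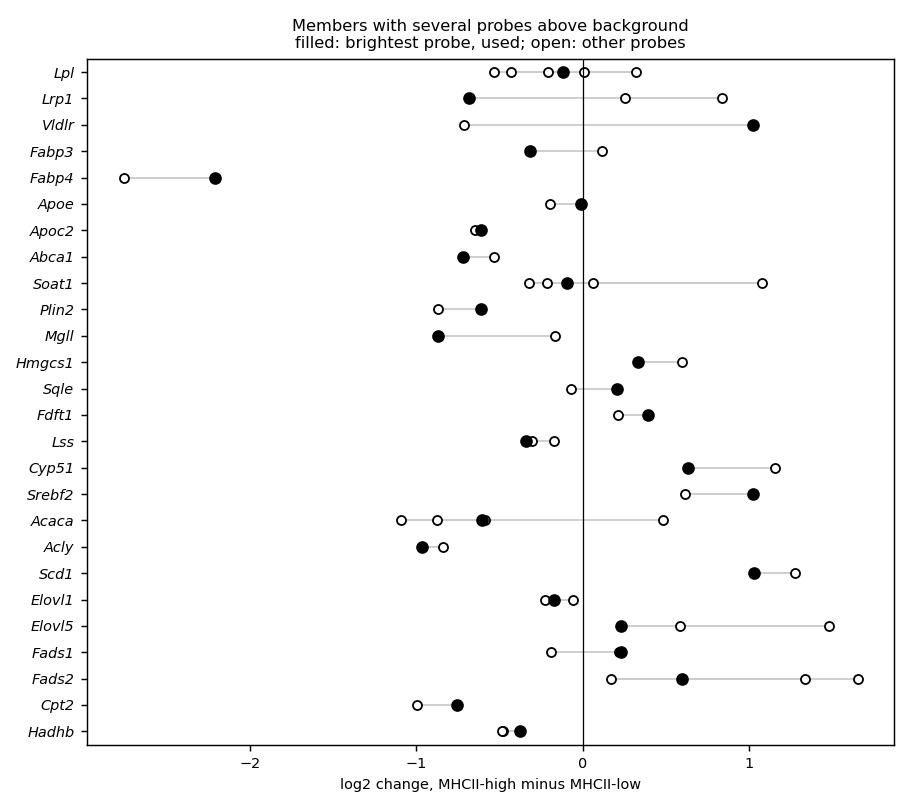
Difference in log2 signal, MHCII-high minus MHCII-low, for each probe of the 26 genes with several probes above background. Filled circles are the brightest probe, which represents the gene, and open circles are the others. In 8 of the 26 genes another probe lies on the opposite side of 0, and of these only Lrp1 passed the threshold.

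Of the 47 genes, 26 had more than 1 probe on at least 4 arrays above background, and in 8 of these (Acaca, Fabp3, Fads1, Lpl, Lrp1, Soat1, Sqle and Vldlr) another probe had the opposite sign. The probes of Fabp4, Abca1, Acly and Srebf2 had 1 sign each. The probes used map in mm9 to chr3:10204452-10204511 for Fabp4, chr7:20274856-20274915 for Apoc1, chr19:34548418-34548477 for Ch25h, chr1:74782203-74782262 for Cyp27a1, chr11:100365518-100365577 for Acly, chr15:82034765-82034824 for Srebf2 and chr10:126975573-126975632 for Lrp1. Which exon or untranslated part each probe lies in was not analysed here.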

How the data were processed

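The deposited scanner files hold 1-colour spot intensity on a linear scale, written by Agilent Feature Extraction 11.5.1.1 according to the submitters' processing notes. Its processed signal had the background subtracted and a spatial trend removed, per the file headers. The deposited series table holds log2 values of the same arrays, made in a way not given in the sources used here. Its array medians were 9.38137 to 9.38149, it followed a quantile normalization of the processed signal, and it served as an alternative.

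Control spots and outlier spots (67 to 160 per array) were dropped. No spot reached saturation. Log2 processed signal was set relative to the array's 75th percentile, replicate spots were averaged, a probe was kept if 4 of 8 arrays or more had it well above background, and the brightest probe represented a gene. Arrays had 38756 to 42120 probes above background (68.5% to 74.4%); precision is limited by the number of arrays. limma 3.58.1 in R 4.3.3 (lmFit and eBayes, two-sided) was fitted to 28006 genes, after a test on simulated data. Lipid genes were matched by the files' gene names, and other genes were named through RefSeq accessions where these matched.

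All 48 genes could be named, and of other pathway genes those past the threshold, at most 3 per list and direction. One such gene is not reported here. Genes, lists and roles were chosen with earlier results of these data known. Alternatives were normexp, quantile normalization, the series table, other filters on dim probes, the mean of all probes, slide row or label number as a block, and leaving out each array.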

Additional observations from a re-analysis of the deposited data

Results flagged for a closer look

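Single arrays stood apart from the other 3 of their group in 6 of 94 groups of 4 arrays, by a gap wider, as a share of the group's range, than Dixon's 95% critical value. Chance flags about 1 in 20 such groups (5%). Acly gave 2 of the 6, with MHCII-high 20435 at 4.7454 above the others at 4.64 to 4.65 and MHCII-low 20442 at 5.9333 above the others at 5.52 to 5.56. Abcg1 was high in MHCII-low 20439 at 3.4417, where the others were at 2.90 to 2.99. Dgat1 was low in MHCII-low 20442 at 1.5932, where the others were at 1.96 to 2.03. Srebf1 was high in MHCII-low 20435 at 1.7047, above the others at 1.44 to 1.46, and Elovl1 was low in MHCII-low 20436 at 3.486, below the others at 3.89 to 3.95. All of these are log2 signals relative to the array's 75th percentile.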

How the results depend on the processing

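The number of genes past the threshold was 1381. It was 452 with slide row blocked and ranged from 550 to 1154 when 1 array was left out. As shares of all genes, in either direction, these were 4.93%, 1.61% and 1.96% to 4.12%. Shares by direction are not given for the alternative fits. Lipid genes lower in MHCII-high cells numbered 7, and 1 with the row block and 3 to 6 without 1 array. Those higher numbered 6, and 2 with the row block and 1 to 3 without 1 array. With no filter on dim probes the lipid genes numbered 6 lower and 4 higher, where 2.88% of all genes passed in either direction. The other pathway genes past the threshold numbered 7 of 93, against 4.93% of all genes, and 15 with normexp, against 6.69%. With the row block 0 passed limma's test, against 1.61% of all genes, and 26 had an unadjusted p under 0.05. Without 1 array 0 to 6 passed. The 0 came without MHCII-high 20439, where 1.96% of all genes passed (28 pathway genes at an unadjusted p under 0.05). The shares of all genes at that unadjusted p are not given for these fits. Fewer arrays enter each of the leave-one-out fits. With the label number as a fixed replicate block these 4 counts were 819 genes (2.92% of all genes), 3 lower, 1 higher and 2 of 93 pathway genes. Acly, Ch25h, Cyp27a1 and Fabp4 kept their calls. With the label number as a random block (correlation 0.0594) 1563 genes (5.58% of all genes) and all 13 lipid genes passed. Deviations of same-numbered arrays correlated at 0.083 to 0.21, over 0.1 in 3 of 4 pairs, and all 4 MHCII-high arrays correlated best with their own number, a hint from the data that the labels do not explain. Lrp1 reversed to 0.14 and Soat1 to 0.10 with the mean of all probes. Apoe turned to 0.0274 with quantile normalization and 0.0267 with the series table, and ranged from -0.0926 to 0.0969 without 1 array (positive without MHCII-high 20436, MHCII-high 20439 or MHCII-low 20442). Dgat2 turned to 0.1006 and Pnpla2 to 0.0181 with the row block. Without 1 array, Dgat2 ranged from -0.3717 to 0.2707 (positive without MHCII-high 20442 or MHCII-low 20439) and Pnpla2 from -0.333 to 0.0831 and Insig1 from -0.1986 to 0.04 (positive without MHCII-high 20442). Lss ranged from -0.5959 to 0.0876 and Fads1 from -0.0501 to 0.4168, each turning without MHCII-low 20436. The cause was not tested for any of these reversals, and of the genes named in them only Lrp1 had passed the threshold. Signal over background kept Elovl6 out of the test.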
